A study of Brassica napus with 6 samples.

Results

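Divergent, or head-to-head, gene pairs are neighbouring genes that lie back to back: the first is transcribed on the minus strand and the second on the plus strand, so that both start sites face the same short stretch of DNA. The pairs described here were found from the gene coordinates deposited with the count tables of Brassica napus. Genes on the 19 chromosomes (10 of the A and 9 of the C subgenome) were sorted by position, and a pair was kept when its gap, the start of the plus gene minus the end of the minus gene, was 1 to 500 bp. Both genes also had to average at least 1 CPM, in counts scaled to 1000000 per library, over the 6 libraries. Of 96902 adjacent pairs of any orientation, 23422 ran minus then plus and 2190 of those had a gap of 1 to 500 bp. The level rule kept 900 pairs with 1800 genes. It left out 699 pairs with 1 partner under 1 CPM and 591 with both under it. No measured difference between the genotypes entered the choice.

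A promoter is the DNA around a start site where the transcription machinery assembles. In plants, genes that start back to back can share one such stretch, called a bidirectional promoter, or can have separate promoters that happen to lie close together. A shared stretch offers the same bound factors and the same open chromatin to both directions, but each direction assembles its own polymerase, and the outputs of both sides can be unequal. Brassica napus, oilseed rape, is an allotetraploid that carries an A and a C subgenome, and its cotyledons store the seed oil that feeds the seedling.

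The study compared cotyledons of a bnsdp1 mutant with those of wild type (WT), with 3 libraries each. SDP1 stands for SUGAR-DEPENDENT1, a lipase that acts first when a seedling uses up its oil reserve. The mutant group is a single line, named bnsdp1#CR88 in the design text. Seedlings of both genotypes grew on half-strength MS medium with 1% sucrose, in darkness for 4 days and then for 6 hours in normal conditions, and polyadenylated RNA was sequenced.

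The whole data set differed widely between genotypes. Totals ranged from 48288744 to 65550668 counts per library. Log2 CPM profiles correlated at r = 0.973 to 0.986 between libraries of 1 genotype, and at 0.851 to 0.892 between genotypes. With edgeR's quasi-likelihood test, 29152 of 56385 genes tested were called at an adjusted p under 0.05. That background is 51.7% of genes called in either direction, with 25.5% higher and 26.2% lower in the mutant. The identifiers of the files carry no gene names, so neither the SDP1 transcripts nor cotyledon marker genes were analysed here. Roles of individual genes are not given for the same reason.

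The 900 pairs were spread over every chromosome, with the lowest number, 15, on A04 and the highest, 92, on A09. There were 463 pairs on A and 437 on C chromosomes. Gaps ran from 9 to 500 bp with a median of 324 bp, and 585 pairs (65.0%) had a gap over 200 and up to 400 bp. The median annotated span of a member gene was 1747 bp, against 1790 bp over all genes tested. The median level was 8.01 CPM for member genes, against 7.03 CPM for all 43210 genes on these chromosomes that reached 1 CPM.

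A set of members was not independent of one another. The gap was exactly 357 bp in 43 of the 900 pairs, 18 on A05, 21 on A09 and 4 elsewhere, while the next most frequent gap occurred 8 times. In 34 of the 43 pairs 1 partner spanned exactly 935 bp, and in 18 of these the other partner spanned exactly 1768 bp. The 935 bp gene lay on the minus strand in 13 pairs and on the plus strand in 21. Before the level rule, 218 divergent pairs had this gap. Their sequences were not examined here, but pairs that share a gap and both spans to the base may be near-identical copies, between which reads could have been split, so their counts are uncertain and they are not treated as separate evidence.

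These recurrent pairs were weakly expressed, with 82 of their 86 genes under 5 CPM on average. The median over the 86 genes was 2.45, 1.46 and 1.85 CPM in mutant replicates 1, 2 and 3, against 2.18, 1.79 and 0.795 CPM in WT replicates 1, 2 and 3. WT replicate 3 stood apart: 83 of the 86 genes were lowest there among the WT libraries. In the mutant, 72 of the 86 genes were lowest in replicate 2. Log2 fold changes of mutant over WT ran from -0.26 to 0.85 with a median of 0.31. The edgeR test called no pair at both partners, 1 pair at 1 partner and 42 at neither, and it called no change of balance. The main comparisons over all members are given with and without these pairs, and no pair described singly below is one of them.

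Member genes were called about as often as all genes tested and less often than genes that reached 1 CPM, and their changes were smaller. The 3 mutant values lay entirely above or below the 3 WT values in 1121 of the 1800 genes (62.3%). The background was 61.1% of all genes tested and 66.6% of genes on these chromosomes that reached 1 CPM. In the mutant 460 of the 1800 genes were higher (25.6%) and 487 were lower (27.1%) than in WT, at background shares of 25.5% and 26.2% of all genes tested. Against the 43210 genes that reached 1 CPM, of which 58.1% were called, the 52.6% of member genes was lower. Of those 43210 genes, 29.9% were higher and 28.2% lower in the mutant. Changes of at least 2-fold were called for 68 higher and 137 lower member genes, together 11.4%, where the background was 22.3% of all genes tested and 20.3% of those at 1 CPM or more. By direction, such calls numbered 5207 higher and 7340 lower among all genes tested. They numbered 3882 higher and 4883 lower among the genes at 1 CPM or more. Without the 357 bp pairs the shares of member genes were 55.2% called and 11.96% called at 2-fold or more. The median absolute log2 fold change was 0.36 in member genes and 0.44 in all genes that reached 1 CPM.

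The smaller changes were seen in each of 3 disjoint library pairs, formed by setting mutant replicate 1, 2 or 3 over the WT replicate of that number. The share of genes at least 2-fold apart was 12.6%, 12.4% and 16.5% in members, against 22.5%, 20.4% and 22.3% in all genes that reached 1 CPM. The 3 differences were -9.93, -8.06 and -5.81 percentage points. The exact two-sided sign-flip test over the 3 library pairs gave p = 0.25, the smallest value this design allows. The differences were -9.41, -7.49 and -9.24 points without the 357 bp pairs. Divergent pairs over 500 and up to 2000 bp apart had 15.7% of their genes called at 2-fold or more, and same-strand neighbours 1 to 500 bp apart had 15.1%.

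Counted by pair, both partners were called in 267 of the 900 pairs, or 29.7%, at a background of 35.3% of the 16308 adjacent pairs in all classes compared. Both partners were higher in the mutant in 85 pairs (9.44%, background 11.4%), and both were lower in 83 pairs (9.22%, background 9.33%). In 99 pairs (11%, background 14.6%) 1 partner was higher and the other lower. Exactly 1 partner was called in 413 pairs, the minus partner in 216 and the plus partner in 197, and neither was called in 220. The 413 pairs were 45.9% (background 45.6%) and the 220 pairs 24.4% (background 19.1%). Of the pairs with both partners called, 62.9% moved in 1 direction, near the background of 58.6% of such pairs in all classes. Without the 357 bp pairs, 31.2% of members had both partners called, 19.6% in the same direction and 11.6% in opposite directions. Both partners changed at least 2-fold in 19 pairs (2.11%, background 4.76%), of which 7 were higher on both sides, 8 lower on both sides and 4 opposite.

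**Figure D1:**
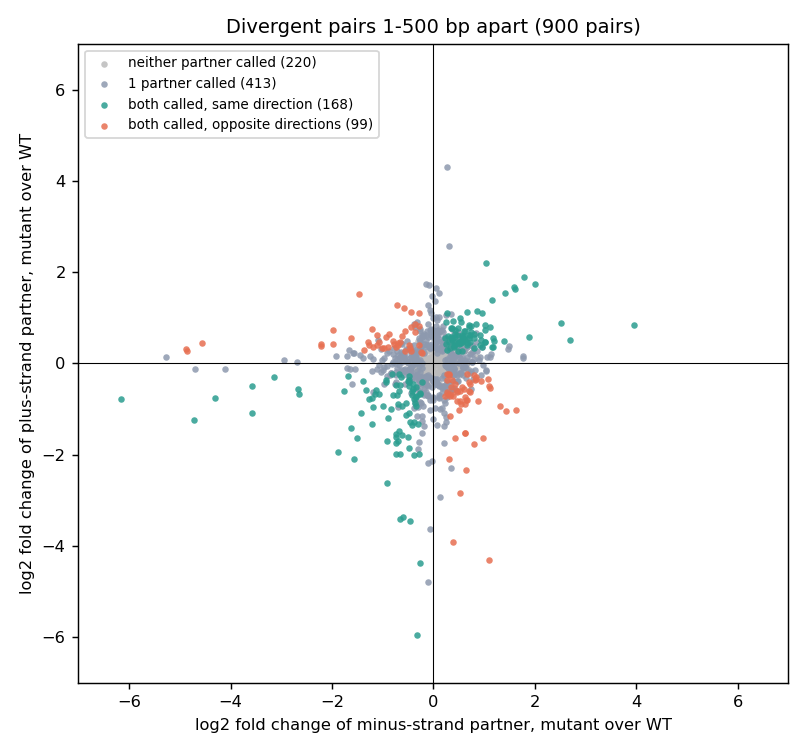
Each point is 1 of the 900 divergent pairs, placed by the log2 fold change (mutant over WT) of its minus-strand partner on the x axis and of its plus-strand partner on the y axis, with colours for the edgeR calls. The cloud fills all 4 quadrants, with 168 pairs called in the same direction and 99 called in opposite directions.

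The direction of the partners matched only a little more often than not. The fitted log2 fold changes had the same sign in 520 of 900 pairs (57.8%). Across the 900 pairs the log2 fold changes of the partners correlated at Spearman 0.204 and Pearson 0.155, as a description over pairs that share the same 6 libraries, their depth and their local base composition. Without the 357 bp pairs, in which 37 of 43 had the same sign, the same-sign share was 56.4% and Spearman's correlation 0.190 over 857 pairs. The median gap between the log2 fold changes of the partners was 0.49, larger than the median size of a single change. It was 0.61 in divergent pairs over 500 and up to 2000 bp apart. In same-strand neighbours it was 0.32 at 1 to 500 bp and 0.64 at any gap. In neighbours 1 to 500 bp apart whose ends face each other it was 0.66.

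Divergent pairs were then set beside other neighbours chosen by the same level rule. Same-strand neighbours 1 to 500 bp apart moved together more often: the same-sign share of fitted changes was 57.8% in the 900 divergent pairs and 66.2% in 1979 same-strand pairs. In the 3 library pairs it was 55%, 54.2% and 58.2% in divergent pairs, against 63.0%, 64.1% and 62.9% in same-strand pairs, so the values did not overlap. The differences were -7.96, -9.85 and -4.64 percentage points (exact two-sided sign-flip p = 0.25, the smallest possible; 0.50 after Benjamini-Hochberg adjustment over 4 comparisons of classes). Without the 357 bp pairs the difference in fitted changes was -9.89 percentage points.

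In the same-sign share, near and far divergent pairs differed by less than the spread between libraries. The 1547 divergent pairs over 500 and up to 2000 bp apart had a same-sign share of 56.2%, and the library pairs gave 57.0%, 52.7% and 57.1%. The near pairs differed from them by -2.01, 1.47 and 1.14 percentage points (exact two-sided sign-flip p = 1). In fitted changes the near pairs were 1.54 points higher, a difference that came to 0.12 points without the 357 bp pairs, -1.95 points without mutant replicate 1 and -0.056 points without WT replicate 3. The size of the changes matched slightly better in the near pairs: Spearman's correlation was 0.204 in them and 0.147 in the far pairs. It was higher in the near pairs by 0.017, 0.060 and 0.122 in the 3 library pairs, and by 0.017, 0.053 and 0.030 without the 357 bp pairs. The 11462 same-strand neighbours at any gap had a same-sign share of 56.3%. Divergent pairs differed from them by 0.106, -0.995 and 2.06 points (exact p = 0.75), and by -0.052, -1.775 and 0.083 points without the 357 bp pairs.

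Convergent neighbours, whose ends and not starts face each other, lay below the divergent pairs. Their same-sign share was 52.7% over 2399 pairs 1 to 500 bp apart, and 50.8%, 50.9% and 52.1% in the library pairs. The divergent pairs were higher by 4.23, 3.37 and 6.08 percentage points (exact two-sided sign-flip p = 0.25, the smallest possible; 0.50 adjusted over the 4 comparisons). They were higher by 4.07, 2.59 and 4.10 points without the 357 bp pairs. Among pairs with both partners called, 62.9% of divergent and 49.3% of convergent pairs changed in 1 direction, and the Spearman correlations of fitted changes were 0.204 and 0.031.

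**Figure D2:**
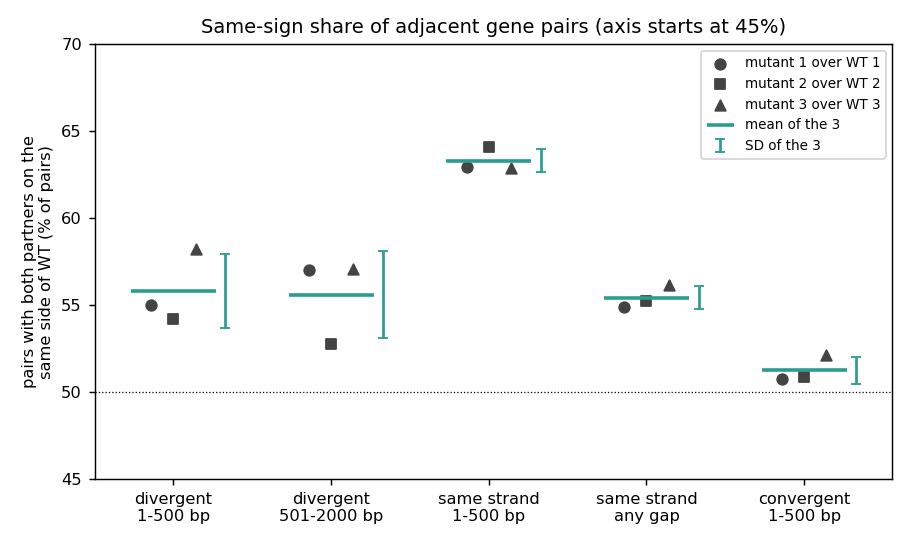
The share of pairs whose partners lay on the same side of WT, in percent, is shown for 5 classes of neighbours; symbols are the 3 disjoint library pairs, the bar is their mean and the whisker their SD, and the axis starts at 45%. Divergent pairs 1 to 500 bp apart (mean 55.8%) lie below same-strand pairs 1 to 500 bp apart (63.3%), above convergent pairs (51.3%) and level with divergent pairs over 500 and up to 2000 bp apart (55.6%).

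The lead of the same-strand class was greater at gaps of up to 200 bp than at wider ones. Same-strand pairs 1 to 100 bp apart had a same-sign share of 77.9% and a Spearman correlation of 0.72 over 366 pairs, and those over 100 and up to 200 bp apart had 74.1% and 0.55 over 348 pairs. Divergent pairs are few at such distances: 29 pairs at 1 to 100 bp had 62.1% and 0.38, and 86 pairs at over 100 and up to 200 bp had 57.0% and 0.04. Over 200 and up to 500 bp, a range chosen after the values by gap had been seen, the same-sign share was 57.7% over 785 divergent pairs and 60.7% over 1265 same-strand pairs. The differences in the 3 library pairs there were -2.10, -4.10 and -0.31 percentage points (exact sign-flip p = 0.25).

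Along the gap, the divergent pairs showed no steady course. Spearman's correlation was 0.20 at over 200 and up to 300 bp over 267 pairs, 0.26 at over 300 and up to 400 bp over 318 pairs and 0.12 at over 400 and up to 500 bp over 200 pairs. It was 0.20 at over 500 and up to 1000 bp over 692 pairs and 0.11 at over 1000 and up to 2000 bp over 855 pairs. The bin of over 300 and up to 400 bp holds the 357 bp pairs, and without them its correlation was 0.23 over 275 pairs. In the third library pair of that bin it was 0.47 with them and 0.25 without.

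**Figure D3:**
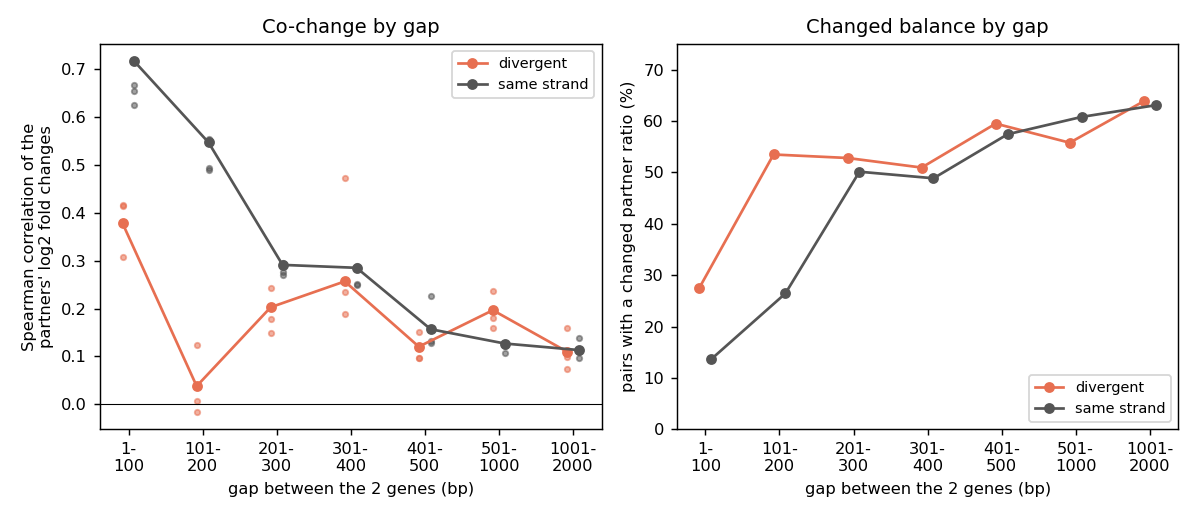
Left, the Spearman correlation of the partners' log2 fold changes (mutant over WT) by gap in bp, with lines for the fit and small points for the 3 library pairs; right, the percentage of pairs with a changed partner ratio. Same-strand pairs start at 0.72 and 13.7% at 1 to 100 bp and meet the divergent pairs by over 400 and up to 500 bp, where the correlations are 0.16 and 0.12.

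A member gene has another neighbour on its far side, which allows a comparison within the same genes. Over 1065 member genes whose outer neighbour also reached 1 CPM, the log2 fold change correlated with that of the divergent partner at Spearman 0.184. With the outer neighbour it correlated at 0.131. The same-sign shares were 56.6% with the divergent partner and 57.7% with the outer neighbour. Leaving out the 357 bp pairs, over 1022 genes, the correlations were 0.168 with the divergent partner and 0.117 with the outer neighbour, and the same-sign shares 55.4% and 56.1%.

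The ratio of the partners was tested directly, pair by pair. In 476 of the 900 pairs (52.9%) the ratio of plus to minus partner differed between mutant and WT (edgeR, adjusted p under 0.05), at a background of 59.8% of all 16308 pairs compared. The ratio moved toward the plus partner in 237 pairs and toward the minus partner in 239. The change of ratio was at least 2-fold in 192 pairs. No background over all pairs compared was taken for this count or for the split by calls that follows. All 99 pairs called in opposite directions had a changed ratio, which opposite calls from the same counts make nearly certain. The ratio was also changed in 70 pairs called in the same direction, 290 with 1 partner called and 17 with neither called. In 98 pairs called in the same direction the test did not call the ratio changed.

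Other classes showed a changed ratio in 60.2% of divergent pairs over 500 and up to 2000 bp apart, 40.6% of same-strand pairs 1 to 500 bp apart and 61.7% of convergent pairs. Without the 357 bp pairs the share in divergent pairs was 55.5%. Over 200 and up to 500 bp the shares were 53.8% in divergent and 52.3% in same-strand pairs.

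Partners were seldom equally abundant. Per kb of annotated span, the levels of the partners correlated at Spearman 0.144 over the 900 pairs and differed by a median factor of 3.06. The correlation of levels was 0.091 and the factor 3.22 once the 357 bp pairs were left out. Same-strand pairs 1 to 500 bp apart had 0.224 and a factor of 2.25, and divergent pairs over 500 and up to 2000 bp apart had 0.014 and 3.38. Levels lay within 2-fold of each other in 280 divergent pairs, 2 to under 4-fold apart in 248 and at least 4-fold apart in 372. The same-sign shares of these 3 groups were 60.4%, 55.6% and 57.3%, and the changed-ratio shares were 48.9%, 47.6% and 59.4%. Other measures ran in another order. Spearman's correlations of the changes were 0.140, 0.209 and 0.216. Of pairs with both partners called, 57.0%, 60.6% and 69.1% moved in 1 direction. The 357 bp pairs were not left out of this split.

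Spread within a genotype gave a measure of co-variation that does not use the contrast between mutant and WT. In each library the deviation of a gene from its genotype mean, on the log2 CPM scale, was set against that of its partner. Across the 900 pairs Spearman's correlation was 0.208, 0.243 and 0.058 in mutant replicates 1, 2 and 3, and 0.247, 0.168 and 0.243 in WT replicates 1, 2 and 3. Without the 357 bp pairs the values were 0.116, 0.146 and 0.093 in the mutant and 0.137, 0.072 and 0.132 in WT. The median over the 6 libraries was therefore 0.225 with those pairs and 0.124 without, against 0.085 in divergent pairs over 500 and up to 2000 bp apart, 0.144 in same-strand pairs 1 to 500 bp apart and 0.119 in convergent pairs.

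The repeat-bearing stretches hold neighbours of other classes too. All pairs between the first and last 357 bp member were left out on A05 (16452082 to 21591727) and on A09 (27834757 to 38444198). The median co-deviation was then 0.106 in the remaining 853 divergent pairs, against 0.080 in divergent pairs over 500 and up to 2000 bp apart, 0.127 in same-strand pairs 1 to 500 bp apart and 0.054 in convergent pairs.

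**Figure D4:**
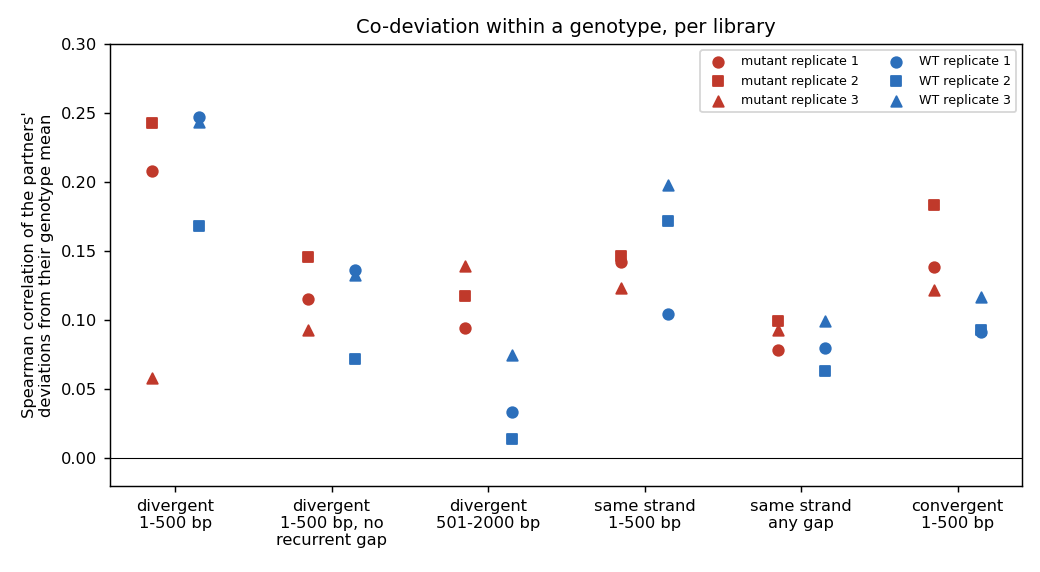
The Spearman correlation across pairs of the partners' deviations from their genotype mean is shown per library (red, mutant; blue, WT) for 5 classes of neighbours, and for the divergent pairs 1 to 500 bp apart also without the 43 pairs of the recurrent 357 bp gap. The 6 values of the divergent pairs run from 0.058 to 0.247 with those pairs and from 0.072 to 0.146 without them.

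Among pairs with both partners higher, the pair at C03:29271041-29271255 (gap 216 bp) ranked first by the change of its less changed partner. Its minus gene BnaC03G0424300ZS, annotated over 291 bp, had 11.7, 11.8 and 9.49 CPM in the mutant libraries against 3.25, 3.05 and 3.18 CPM in WT. Its plus gene BnaC03G0424400ZS, over 924 bp, had 31.0, 35.3 and 29.3 CPM in the mutant against 7.28, 8.20 and 10.1 CPM in WT. For both genes every mutant library lay above every WT library, as the rule required. The log2 fold changes were 1.80 (SE 0.118, edgeR adjusted p = 1.15e-06) and 1.90 (SE 0.128, adjusted p = 1.37e-06), and the log2 change of their ratio was 0.12 (SE 0.161, adjusted p = 0.551).

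The most abundant pair of this group lay at A01:1578039-1578398. Its minus gene had 343, 305 and 313 CPM in the mutant against 73.9, 71.4 and 93.5 CPM in WT (log2 fold change 2.01, SE 0.119, edgeR adjusted p = 5.77e-07). Its plus gene had 101.3, 105.5 and 111.1 CPM in the mutant against 32.3, 33.02 and 30.02 CPM in WT (log2 fold change 1.74, SE 0.0838, adjusted p = 1.47e-07). This pair lies in the first 15 Mb of A01, a stretch picked from earlier results of these data, with 30 member pairs. Of these, 9 were lower at both partners, 2 (this pair among them) were higher at both and 1 was opposite. Another 10 had 1 partner called and 8 had neither.

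A pair on C04 and a pair on A04 resembled each other in layout and response. At C04:46581075-46581464 a 327 bp minus gene had 13.2, 14.95 and 15.8 CPM in the mutant against 5.33, 4.65 and 4.67 CPM in WT. Its 1032 bp plus partner had 9.28, 9.77 and 8.95 CPM in the mutant against 2.65, 3.13 and 2.95 CPM in WT. The log2 fold changes were 1.59 (SE 0.107) and 1.68 (SE 0.110). At A04:4679967-4680339 the short gene of 327 bp lay on the plus strand and had 13.2, 14.003 and 12.7 CPM in the mutant against 5.62, 5.08 and 4.58 CPM in WT. Its 1008 bp minus partner had 20.2, 19.2 and 16.9 CPM in the mutant against 7.71, 7.40 and 10.2 CPM in WT. These changes were 1.39 (SE 0.105) and 1.16 (SE 0.130). Whether the C04 and A04 genes are counterparts of each other was not examined.

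The fifth pair of this kind, at A06:48673251-48673469, roughly doubled on both sides. Its minus gene had 15.6, 18.2 and 16.0 CPM in the mutant against 8.26, 9.21 and 8.36 CPM in WT. Its plus gene had 39.7, 35.0 and 39.8 CPM in the mutant against 19.1, 16.8 and 17.5 CPM in WT. The ratio of its partners did not pass the test (log2 change 0.15, SE 0.155, edgeR adjusted p = 0.422). For none of the 5 pairs did edgeR call the ratio changed.

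Both partners fell at C07:25732420-25732760 (gap 342 bp), a pair of genes annotated over 300 bp each. The minus gene BnaC07G0134500ZS had 12.2, 18.1 and 14.5 CPM in the mutant against 46.04, 40.7 and 46.1 CPM in WT. The plus gene BnaC07G0134600ZS had 19.8, 26.6 and 21.3 CPM in the mutant against 103, 96.9 and 91.4 CPM in WT. By the rule, no mutant value reached a WT value in either gene. The log2 fold changes were -1.56 (SE 0.134, edgeR adjusted p = 6.99e-06) and -2.10 (SE 0.118, adjusted p = 3.91e-07), and the ratio moved toward the minus gene by a log2 of -0.53 (SE 0.134, adjusted p = 0.00423).

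On A07 and A09 a pair each fell by similar amounts on both sides. At A07:711357-711746 the minus gene had 9.55, 9.65 and 11.3 CPM in the mutant against 28.5, 30.9 and 27.4 CPM in WT, a log2 fold change of -1.51 (SE 0.0963). The plus gene there had 2.91, 4.29 and 4.19 CPM in the mutant against 12.2, 13.4 and 9.95 CPM in WT, or -1.64 (SE 0.164). At A09:4197570-4197933 the values for the minus gene were 3.16, 3.69 and 4.60 CPM in the mutant against 12.6, 10.5 and 12.3 CPM in WT. The ratio of the partners was not called changed in either pair (edgeR adjusted p = 0.507 on A07 and 0.314 on A09).

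Elsewhere both partners fell but to very unequal degrees. At A03:1061748-1062073 the minus gene had 0.166, 0.646 and 0.662 CPM in the mutant against 14.2, 12.7 and 12.9 CPM in WT. Its plus partner had 4.98, 4.67 and 4.56 CPM in the mutant against 11.1, 13.1 and 9.496 CPM in WT. The minus gene stayed under 1 CPM in every mutant library (log2 fold change -4.73, SE 0.276), while its partner fell less (-1.24, SE 0.129), and the ratio changed by a log2 of 3.52 (SE 0.339, edgeR adjusted p = 2.72e-06).

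The C09:26093000-26093391 pair holds the named gene with the most counts. Its plus gene had 547, 784 and 636 CPM in the mutant against 1451, 1375 and 1347 CPM in WT (log2 fold change -1.08, SE 0.132). Its minus gene had 2.08, 3.15 and 3.20 CPM in the mutant against 36.5, 32.2 and 32.2 CPM in WT (log2 fold change -3.57, SE 0.150). The log2 change of their ratio was 2.50 (SE 0.152, edgeR adjusted p = 6.47e-08).

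Among pairs with opposite calls, the one at A10:14752321-14752678 ranked first by its less changed partner. The minus gene had 2.20, 3.84 and 4.08 CPM in the mutant against 8.85, 10.04 and 9.16 CPM in WT, and the plus gene had 14.6, 13.1 and 14.8 CPM in the mutant against 5.43, 4.47 and 4.94 CPM in WT. By the rule, neither gene had a mutant value within its WT range. The log2 fold changes were -1.47 (SE 0.193, edgeR adjusted p = 0.000131) and 1.52 (SE 0.107, adjusted p = 1.82e-06), and the ratio changed by 3.01 (SE 0.243).

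A pair of C07 loci showed the reverse orientation of change, minus gene higher and plus gene lower. At C07:1370281-1370618 the minus gene had 17.6, 16.6 and 16.1 CPM in the mutant against 6.47, 5.85 and 6.32 CPM in WT. Its plus partner had 4.55, 6.18 and 4.61 CPM in the mutant against 9.30, 11.04 and 11.1 CPM in WT. At C07:23623799-23624228 the minus gene had 12.6, 11.1 and 10.6 CPM in the mutant against 5.26, 6.36 and 5.75 CPM in WT. Its partner was lower, at 3.03, 3.04 and 2.39 CPM in the mutant against 8.49, 7.20 and 10.6 CPM in WT. The ratios changed by -2.48 (SE 0.182) and -2.60 (SE 0.204) on the log2 scale.

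The remaining opposite pairs lay on A06 and C03. At A06:43423968-43424392 the plus gene had 5.23, 5.11 and 5.48 CPM in the mutant against 18.2, 18.3 and 17.1 CPM in WT. Its minus partner rose, to 17.9, 21.9 and 18.9 CPM in the mutant against 11.5, 12.6 and 9.72 CPM in WT. At C03:4953837-4954088 the minus gene had 2.57, 3.002 and 3.53 CPM in the mutant against 7.02, 7.61 and 6.43 CPM in WT, and the plus gene rose by 0.75 (SE 0.0981) on the log2 scale. Each of these 4 genes was called in edgeR, with adjusted p-values of 0.000275 or less.

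**Figure D5:**
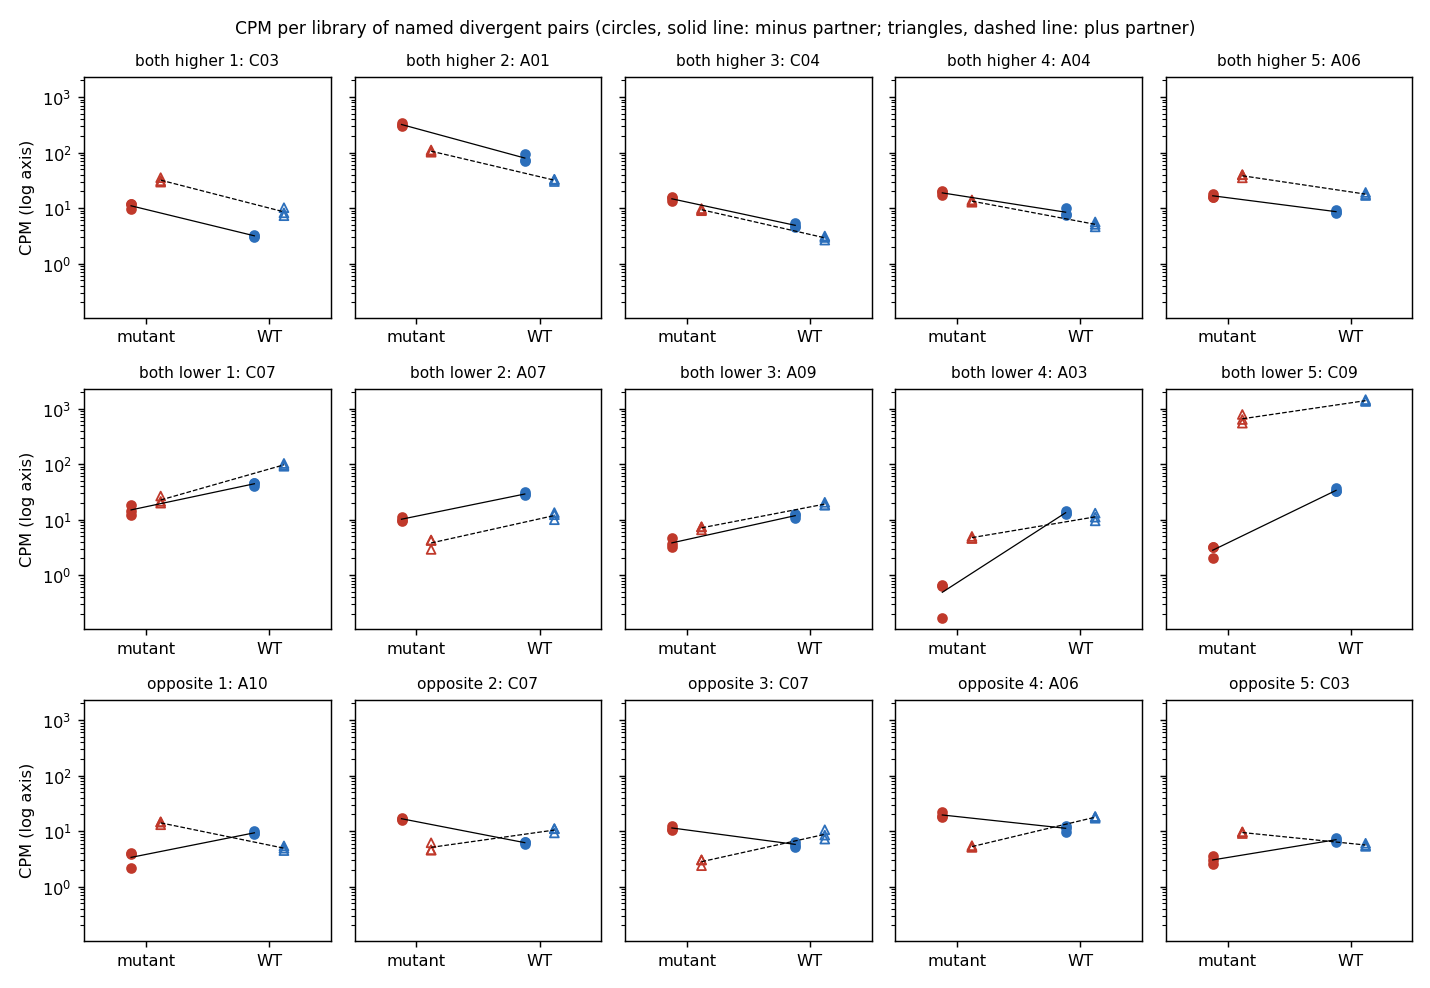
CPM per library on a log axis is shown for the 5 named pairs with both partners higher, the 5 with both lower and the 5 with opposite changes, with mutant (red) left of WT (blue), filled circles for the minus gene and open triangles for the plus gene, and lines joining the group means. In the top row both lines fall toward WT, in the middle row both climb toward WT, and in the bottom row they cross or diverge.

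A further 3 pairs were taken by the p of their ratio from pairs with only 1 partner called. That the other partner did not pass the test was therefore part of the choice. By the rule, the mutant and WT values of that other partner did not overlap either. At A09:52936269-52936692 the minus gene had 0.125, 0.342 and 0.515 CPM in the mutant against 13.8, 12.6 and 12.6 CPM in WT (log2 fold change -5.28, SE 0.258). Its plus partner, 425 bp away, had 17.1, 18.0 and 17.9 CPM in the mutant against 15.9, 16.8 and 15.7 CPM in WT. The minus gene stayed under 1 CPM in every mutant library, while the partner differed by a log2 of 0.13 (SE 0.0780, edgeR adjusted p = 0.188).

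The other two of these were less extreme. At C08:49129090-49129494 the minus gene had 14.4, 19.2 and 19.8 CPM in the mutant against 35.5, 38.4 and 35.6 CPM in WT. Its plus partner had 17.6, 18.3 and 15.4 CPM in the mutant against 14.6, 15.3 and 11.2 CPM in WT. This plus partner did not pass the test (0.32, SE 0.124, edgeR adjusted p = 0.0555). That partner did pass with a replicate block (adjusted p = 0.0159) and without mutant replicate 3 (adjusted p = 0.0425). At C05:4247165-4247354 the plus gene had 103.7, 96.7 and 101.5 CPM in the mutant against 47.8, 49.4 and 52.8 CPM in WT. Its minus partner had 14.5, 13.5 and 13.8 CPM in the mutant against 13.2, 13.4 and 12.3 CPM in WT, a log2 difference of 0.11 (SE 0.0830, adjusted p = 0.310).

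The largest changes were looked at from the side of the other partner. In a count added after the values had been seen, 23 of the 900 pairs had a partner called at 8-fold or more, 21 lower and 2 higher in the mutant. Such genes made up 1.28% of member genes, at a background of 3.69% of all genes tested. That background includes genes under 1 CPM, which members could not be, and it was not split by direction. The other partner was called in the same direction in 12 of the 23 pairs, called in the opposite direction in 5 and not called in 6, where 52.6% of all member genes were called in either direction. Its log2 fold change ran from -1.24 to 1.09 with a median of -0.13. It was called at 2-fold or more in 3 of the 23 pairs, a share near the 11.4% of all member genes.

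The most abundant pairs, ranked per kb of span by their lower partner, ranged from the C07 pair of 300 bp genes, which fell by log2 values of -1.56 and -2.10, to a pair on C09 with changes of -0.23 and -0.09. At A06:1371975-1372276 a 591 bp minus gene had 354, 485 and 376 CPM in the mutant against 809, 761 and 757 CPM in WT (log2 fold change -0.94, SE 0.124, edgeR adjusted p = 0.000137). Its 963 bp plus partner had 124, 162 and 152 CPM in the mutant against 203, 190 and 169 CPM in WT, with a change of -0.36 (SE 0.117, adjusted p = 0.0254). That call was lost without mutant replicate 1 or 3 or WT replicate 1 or 2, at edgeR adjusted p-values of 0.0507 to 0.0969.

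The C06:13295555-13295824 pair had nearly the same spans in mirror order. Its 589 bp plus gene had 313, 418 and 357 CPM in the mutant against 625, 574 and 569 CPM in WT (log2 fold change -0.70, SE 0.116, edgeR adjusted p = 0.00059). Its 965 bp minus gene had 90.3, 110.6 and 101.95 CPM in the mutant against 114.9, 118 and 111.4 CPM in WT, where the groups lay side by side without overlap and the test was not passed (adjusted p = 0.125). On both chromosomes the shorter gene had the higher level per kb of span, and the ratio moved against it, by 0.59 (SE 0.137) on A06 and -0.52 (SE 0.128) on C06, each plus over minus.

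The abundant pair on A03 was split in direction. At A03:20867102-20867172 (gap 72 bp) the minus gene had 317, 433 and 400 CPM in the mutant against 576, 549 and 446 CPM in WT. Its plus partner had 261, 345 and 306 CPM in the mutant against 163, 173 and 81.4 CPM in WT. The partners were called in opposite directions, at -0.45 (SE 0.137, edgeR adjusted p = 0.0191) and 1.13 (SE 0.240, adjusted p = 0.00282), although the minus gene missed the threshold without mutant replicate 1 or WT replicate 1 or 2 (adjusted p-values of 0.0608 to 0.0783). At C09:64963906-64964351 the plus gene had 116, 138 and 128 CPM in the mutant against 137, 152 and 119 CPM in WT, and these groups overlapped. Its minus partner had 20.6, 21.7 and 20.9 CPM in the mutant against 25.2, 26.2 and 22.5 CPM in WT (edgeR adjusted p = 0.0459), a call lost in 8 of 10 other settings.

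At the narrowest gaps the pairs did not behave alike. At C07:30908420-30908427 the annotated genes lie 9 bp apart and both were higher. The minus gene there had 43.4, 40.7 and 46.2 CPM in the mutant against 32.5, 28.4 and 36.6 CPM in WT, and the plus gene had 5.73, 5.05 and 6.21 CPM in the mutant against 3.48, 2.90 and 4.48 CPM in WT. At A07:18957647-18957663 (gap 18 bp) the minus gene had 13.6, 14.3 and 13.3 CPM in the mutant against 8.13, 8.89 and 9.33 CPM in WT. Its plus partner had 0.623, 1.29 and 1.29 CPM in the mutant against 1.04, 1.44 and 1.51 CPM in WT, where the groups overlapped. At A05:42703038-42703055 (gap 19 bp) neither partner was called, with log2 fold changes of -0.24 (SE 0.109) and 0.14 (SE 0.123).

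Pairs beside the limits of the rule were mixed as well. Just inside, with a gap of 500 bp, A05:4388641-4389139 had log2 fold changes of -1.88 and -1.94, and C07:50138387-50138885 had -0.33 and -5.96. Just outside, 7 pairs had a gap 1 bp over the limit, among them A08:15727819-15728318 with -5.45 and 0.07, and A03:1238205-1238704 with -0.79 and -0.64. At the level limit, the lower partner averaged 1.003 CPM in the last pair kept and 0.994 CPM in the first pair left out. The pair left out lay on A05 and had the recurrent gap of 357 bp, so its counts are uncertain too.

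Of the members, 44 lay in 3 chromosome stretches that had been picked from earlier results of these data. The stretches at 27 to 32 Mb of A07, 46 to 51 Mb of C06 and 0 to 15 Mb of A01 held 12 pairs that were lower at both partners, 2 higher at both and 3 opposite. The same-sign share was 72.7% there and 57.0% in the 856 pairs outside, while Spearman's correlation was 0.098 inside and 0.186 outside. The stretches also differed: the same-sign share was 72.7% over 11 pairs on A07, 33.3% over 3 pairs on C06 and 76.7% over 30 pairs on A01, and Spearman's correlation was -0.618 on A07 and 0.269 on A01. The part of these stretches in the match between partners was not tested beyond leaving them out. The A and C subgenomes were close, with same-sign shares of 59.4% on A and 56.1% on C chromosomes and Spearman correlations of 0.209 and 0.197. In the 402 pairs with both partners at 5 CPM or more, the same-sign share was 54.2% and the correlation 0.191.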

How the data were processed

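Poly(A) RNA of 3 mutant and 3 WT cotyledon libraries was analysed from 1 deposited table per library, which holds raw read counts per gene with chromosome, start, end and strand, per the file headers. The submitters' processing notes name fastp, HISAT2 and featureCounts. No label or file header names versions, the genome build, the strand setting or the handling of reads with several matches. Library totals ranged from 48288744 to 65550668 counts.

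Genes were tested with edgeR 4.0.16 in R 4.3.3 (filterByExpr, TMM scaling, quasi-likelihood F test, Benjamini-Hochberg adjustment over 56385 genes, called under 0.05). The change in balance between partners was tested in edgeR with 1 row per pair, library as a block and the partner-by-genotype term, adjusted over 16308 pairs. Both scripts were tested on simulated data. For the level rule and for averages over the 6 libraries, CPM is the count scaled to a library total of 1000000. CPM values given per library were scaled by the library size after the count filter times the TMM factor. Class differences were set against 3 disjoint library pairs with an exact two-sided sign-flip test. DESeq2 1.42.0, limma 3.58.1, scaling, filter, gap, level, replicate block and left-out libraries were alternatives.

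The rule for named pairs asked for both partners at 5 CPM or more with mutant and WT values apart. It took the 5 pairs changed most in their less changed partner (both higher, both lower, opposite), 3 by balance p with 1 partner called, the 5 most abundant and the 3 narrowest, the last 2 sets without that condition. The members, classes and lists were chosen with earlier results of these data known. The identifiers of the files matched 0 of the gene identifiers in the RefSeq table used, so gene names, roles and sequences were left out. The p-values measure the spread between libraries, which may be technical, since the labels do not say whether replicates were separate seedlings.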

Additional observations from a re-analysis of the deposited data

How the results depend on the processing

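Calls were counted again under other settings. Genes called numbered 28117 with DESeq2, 28813 with library size alone, 29440 without the count filter, 28376 with a replicate block and 25676 to 28634 without 1 library. Library size alone gave 45.7% of calls higher, against 49.3%. Pairs with both partners called numbered 204 to 265 without 1 library, same-direction pairs 131 to 166, opposite pairs 69 to 99 and changed ratios 413 to 473. With both partners at 5 CPM or more these counts were 155, 94, 61 and 230, and with a gap of 1 to 250 bp 69, 46, 23 and 120, fewer pairs being eligible by construction. The same-sign difference from same-strand pairs 1 to 500 bp apart ran from -10.6 to -5.80 points without 1 library, and was 1.52 against same-strand pairs at any gap. The difference from divergent pairs over 500 and up to 2000 bp apart ran from -1.95 (without mutant replicate 1) to 2.60, with -0.056 without WT replicate 3. It was -3.36 at 5 CPM or more and -0.0629 without the A05 and A09 stretches. The cause was not tested. Co-deviation within a genotype, 0.225, was 0.124 without the 357 bp pairs and 0.106 without those stretches. Settings that leave these pairs out were added with their values already seen. Of 500 values for the 50 named genes, 15 lost and 3 gained the call, and none reversed.

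Replicate numbers were not taken as a pairing. Deviations of same-numbered mutant and WT libraries correlated at 0.207, -0.062 and 0.066, and those of unlike numbers at -0.217 to 0.178. With 3 libraries per genotype, whose deviations are tied to their shared mean, these values cannot decide whether the numbers mark a pairing. With the replicate block 256 pairs had both partners called, 156 in the same and 100 in opposite directions. The same-sign differences were -8.27 and 1.22 points, and Spearman's correlation of changes was 0.216.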
